A study of Mus musculus with 8 samples.

Results

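Interferon response genes are the genes that interferons switch on in a cell, and 37 of them were followed here across 4 groups of mouse small intestine. They were taken as every probe whose gene name in the array files is one of the 37 listed symbols or an older alias, which found all 37 on 45 probes among the 21766 genes measured. A probe was kept where both arrays of some group read it well above background. Of the 45 probes 43 were kept, with at least 1 for each gene. The list had been drawn up with earlier results of the same data known, and no measured value entered the rule.

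The tissue came from female BALB/cA Jcl mice aged 8 weeks, all of which had an intraperitoneal injection 12 h before exposure and were sampled 4 h after it. The 4 groups were FGF1/CPP-C before 8 Gy of carbon ions, FGF1 before 8 Gy, saline before 8 Gy (irradiated saline) and saline with 0 Gy (unirradiated saline). FGF1 is fibroblast growth factor 1, and FGF1/CPP-C is a chimeric protein made from it. There was no unirradiated group given either protein, so what the proteins did without radiation was not measured. Each group had 2 Agilent 1-colour arrays, array 1 on slide 1 and array 2 on slide 2. Whether they came from separate animals is not in the labels, and the p-values measure only the spread between arrays, which may be technical. The samples are named small intestine, and the design text names jejunum. Markers of absorptive enterocytes were present on all 8 arrays.

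Interferons bind receptors at the cell surface, and the receptors' JAK kinases phosphorylate STAT proteins such as STAT2, which joins IRF9 in a complex that binds a promoter element called ISRE. Interferon gamma acts through another element, GAS. The products sense foreign nucleic acid, degrade RNA, block translation, trap virus particles, tag proteins with ISG15 and prepare peptides for display to T cells. Gut epithelium is known to answer type III interferon, and immune cells of the mucosa answer type I and II.

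The promoters of 28 of the 37 genes were held in a RefSeq table of build GRCm38.p6, as 250 bases before to 50 bases after the start of transcription. ISRE was searched as GAAA, any 2 bases and GAAA again, and GAS as TTC, any 3 bases and GAA, on both strands and with overlaps allowed. These genes have 31 windows, since a gene can have several starts. An ISRE match lay in 16 of the 31 windows (51.6%), in 16 of the 28 genes, and in 1131 of all 32851 windows of the same length (3.44%). A GAS match lay in 8 of the 31 (25.8%), in 8 of the 28 genes, and in 2726 of all windows (8.3%). A match of letters is a description and not a bound site. The windows of the 5 genes that the results below turn on are printed to show how their matches are arranged, 5′ to 3′ on the strand of the gene, with ISRE matches in capitals. They are those of Isg15 at chr4:156200769-156201068 on the minus strand, Ifit3 at chr19:34583279-34583578 on the plus strand, Oas3 at chr5:120777610-120777909 on the minus strand, Ifitm3 at chr7:141010695-141010994 on the minus strand and Trim25 at chr11:88999153-88999452 on the plus strand.
Isg15: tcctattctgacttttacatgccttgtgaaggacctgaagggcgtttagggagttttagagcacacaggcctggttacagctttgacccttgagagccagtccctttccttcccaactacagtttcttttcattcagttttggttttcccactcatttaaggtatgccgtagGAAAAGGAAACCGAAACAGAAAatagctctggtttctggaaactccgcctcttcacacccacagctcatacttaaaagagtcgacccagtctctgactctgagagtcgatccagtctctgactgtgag
Ifit3: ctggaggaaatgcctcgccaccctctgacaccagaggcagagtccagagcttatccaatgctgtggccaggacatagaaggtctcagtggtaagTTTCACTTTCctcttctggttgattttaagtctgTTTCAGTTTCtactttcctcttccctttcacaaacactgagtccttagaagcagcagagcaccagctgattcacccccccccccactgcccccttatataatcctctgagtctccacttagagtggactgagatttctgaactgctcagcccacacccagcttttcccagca
Oas3: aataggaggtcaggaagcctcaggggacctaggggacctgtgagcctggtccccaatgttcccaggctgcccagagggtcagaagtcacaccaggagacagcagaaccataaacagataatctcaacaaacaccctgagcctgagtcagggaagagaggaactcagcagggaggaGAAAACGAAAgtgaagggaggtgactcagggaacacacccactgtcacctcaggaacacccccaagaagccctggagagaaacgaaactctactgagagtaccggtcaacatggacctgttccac
Ifitm3: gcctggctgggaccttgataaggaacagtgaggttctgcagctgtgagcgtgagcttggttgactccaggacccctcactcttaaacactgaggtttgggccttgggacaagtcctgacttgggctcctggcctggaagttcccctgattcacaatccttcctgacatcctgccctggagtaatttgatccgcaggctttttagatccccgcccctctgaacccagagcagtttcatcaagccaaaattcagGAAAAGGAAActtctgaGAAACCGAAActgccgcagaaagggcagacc
Trim25: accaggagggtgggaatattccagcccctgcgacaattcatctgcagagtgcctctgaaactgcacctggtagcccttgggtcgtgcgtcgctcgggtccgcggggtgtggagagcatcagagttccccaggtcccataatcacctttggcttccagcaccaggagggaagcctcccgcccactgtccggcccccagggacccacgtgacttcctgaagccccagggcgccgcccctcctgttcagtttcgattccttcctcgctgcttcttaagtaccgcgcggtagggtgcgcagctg

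In Isg15 3 ISRE matches overlapped one another, beginning 78, 72 and 66 bases before the start. Ifit3 had 2 separate ones, on the other strand, beginning 156 and 122 bases before it, and Oas3 had 1, beginning 75 bases before it. Both matches of Ifitm3 began after the start, at 2 and 19 bases, and a GAS match at 13 bases overlapped the second. The Trim25 window held neither motif. Irf7, Irf9, Oasl1, Oasl2, Ifi44, Psmb9, Tap1 and Xaf1 also had a window with no match of either motif.

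**Figure D1:**
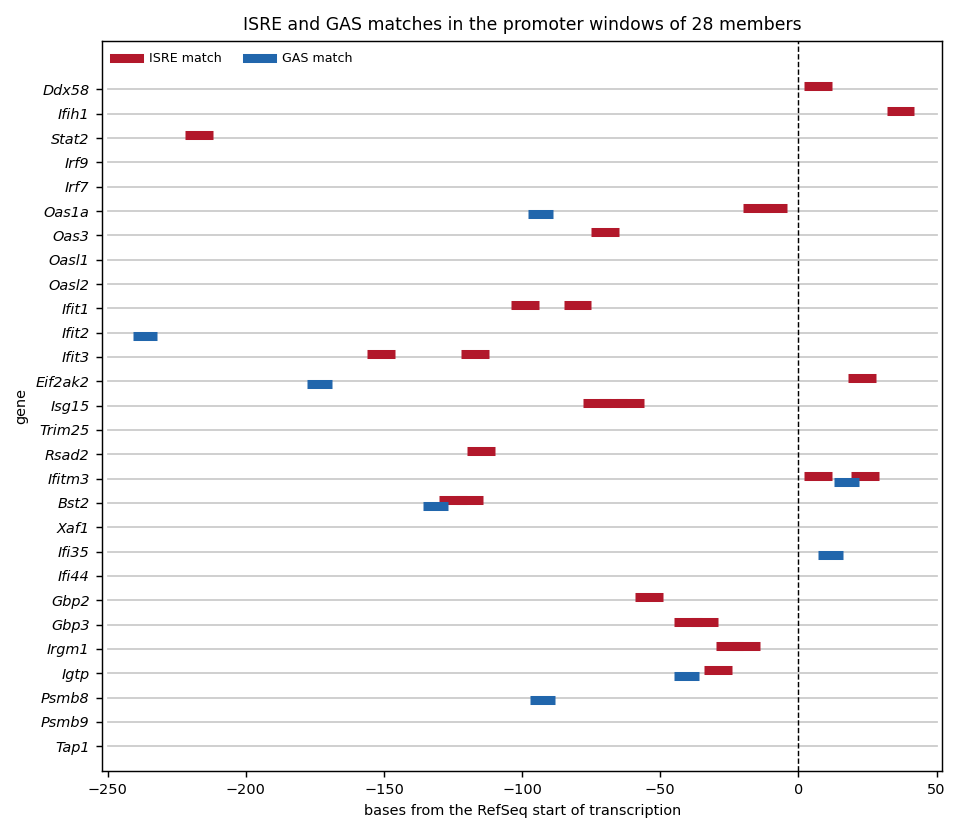
Positions of ISRE (red) and GAS (blue) matches in the promoter windows of the 28 members that have one, in bases from the RefSeq start of transcription (dashed line), with 1 row per gene. ISRE matches occur in 16 genes, and the one farthest before the start belongs to Stat2, at 222 bases.

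The probes that read 3 of the genes are printed, in the array files' mm9 coordinates. Ifitm3 passed a test below, the 2 probes of Xaf1 differed, and the Trim25 probe is shown for its letters. The Ifitm3 probe (chr7:148195591-148195650, minus strand) was spotted 10 times on each array. The brighter Xaf1 probe lies at chr11:72122169-72122228 and the dimmer at chr11:72127175-72127234, both on the plus strand. The Trim25 probe spans chr11:88874956-88881181 on the plus strand, longer than its own 60 bases, and 31 of its bases are a run of alternating T and G, shown in capitals. Among the probes used for the other members the longest such run of 2 alternating bases was 6. Exon and UTR annotation in mm9 was not used here.
Ifitm3 probe: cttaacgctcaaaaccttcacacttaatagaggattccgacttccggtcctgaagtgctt
Xaf1 brighter probe: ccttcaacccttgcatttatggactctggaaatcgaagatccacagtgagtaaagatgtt
Xaf1 dimmer probe: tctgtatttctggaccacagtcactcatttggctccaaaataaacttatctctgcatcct
Trim25 probe: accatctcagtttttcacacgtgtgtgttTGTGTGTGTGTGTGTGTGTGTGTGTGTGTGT

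Levels are the log2 of the processed signal minus the array's 75th percentile, so 0 is the 75th percentile, and probes of different genes are not compared by level. The 75th percentile lay between 1711.5 and 2131.5 intensity units, and 66.89% to 71.13% of probes stood well above background. Across genes, r between partner arrays was 0.9818 to 0.9932. The arrays differed in transcripts of neighbouring organs. The summed signal of 8 stomach antrum markers, relative to the 75th percentile, was 0.6005 and 0.3828 on the FGF1/CPP-C arrays, 740.3 and 292.7 on the FGF1 arrays, 300.6 and 926.1 on the irradiated saline arrays, and 836.2 and 518.8 on the unirradiated saline arrays. That of 10 pancreatic acinar markers was 191.2 on array 2 of irradiated saline and 766.6 on array 1 of unirradiated saline, and at most 5.486 elsewhere. Both FGF1/CPP-C arrays were thus far lower in antrum transcripts than every other array. In all comparisons of that group, pretreatment and tissue content therefore cannot be told apart. For either protein over irradiated saline, the members' medians and most of their counts are also given without array 2 of irradiated saline.

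As a set, the interferon response genes were highest in intestine pretreated with FGF1/CPP-C, intermediate with FGF1 and lowest with saline. Each gene was centred on its own mean over the 8 arrays, and the median of the 37 was then taken on each array. This median was 0.52 and 0.24 on the FGF1/CPP-C arrays, 0.03 and 0.16 on the FGF1 arrays, -0.06 and -0.47 on the irradiated saline arrays, and -0.17 and -0.23 on the unirradiated saline arrays. Both FGF1/CPP-C arrays lay above the other 6, and the lowest was array 2 of irradiated saline. The pooled SD between the arrays of a group was 0.1815. The same median over all genes stayed between -0.09 and 0.06 on the 8 arrays.

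Most single genes had that order. The mean of FGF1/CPP-C was above that of FGF1 and that of FGF1 above that of irradiated saline for 35 of 37 members, an order that 25.6% of all genes had. Each gene was read by its brightest kept probe, and second probes are given below for FGF1/CPP-C over FGF1. Both FGF1/CPP-C arrays were above all 6 other arrays for 20 of the 36 members with a value on every array, against 9.89% of all genes. FGF1/CPP-C had the highest group mean for 33 members (30.8% of all genes), and irradiated saline the lowest for 23 (21.1%). Without array 2 of irradiated saline, that group had the lowest mean for 9 of 36 members (8.93% of all genes). Array 1 of FGF1/CPP-C was the highest array for 31 members, and array 2 of irradiated saline was the lowest for 26. In bulk tissue, fewer cells of a type and less RNA per cell cannot be told apart.

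**Figure D2:**
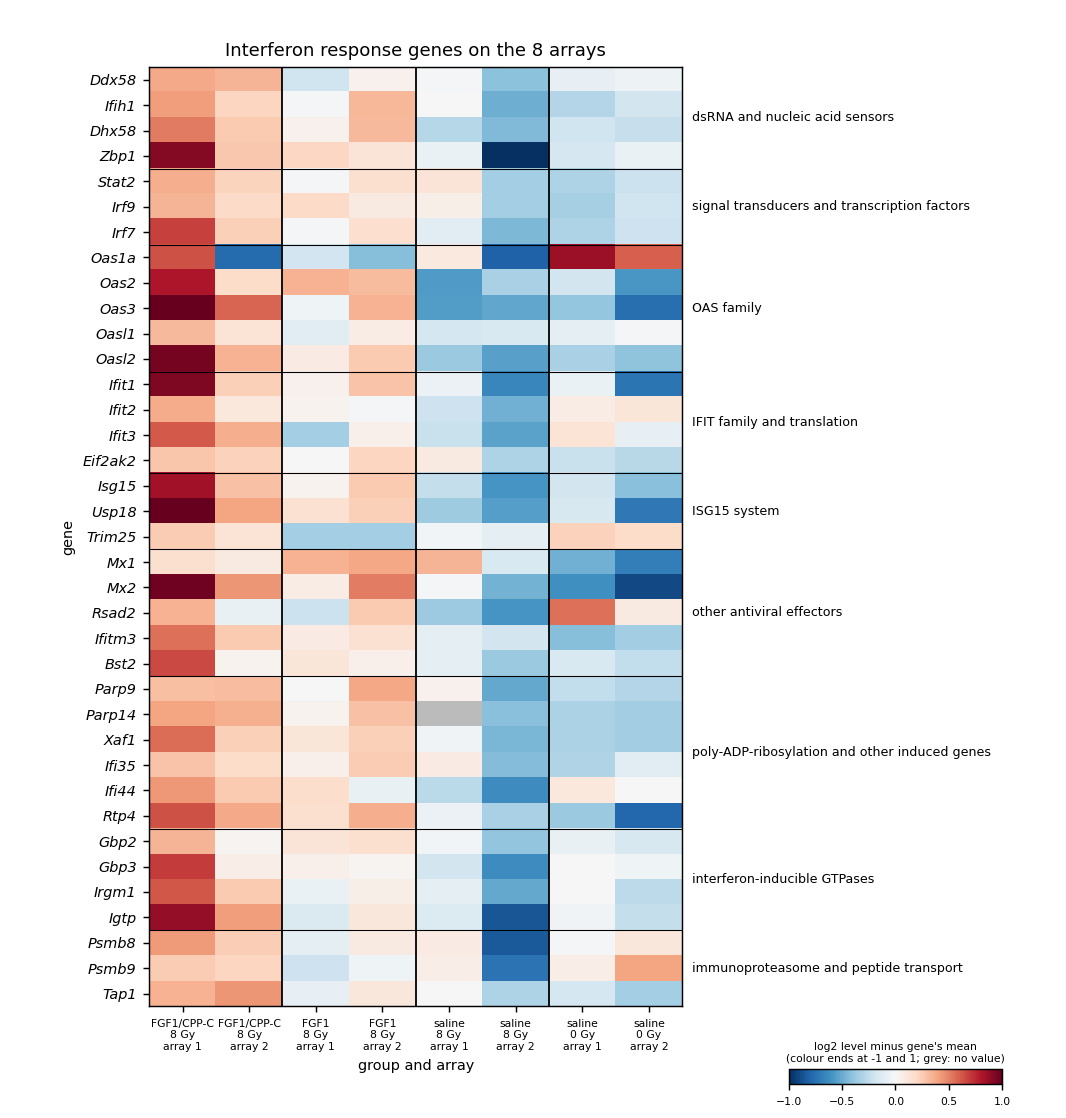
Levels of the 37 interferon response genes on the 8 arrays, each gene centred on its own mean, with genes in rows ordered by role and arrays in columns. All 37 members were above their own mean on array 1 of FGF1/CPP-C and none on array 2 of irradiated saline.

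**Figure D3:**
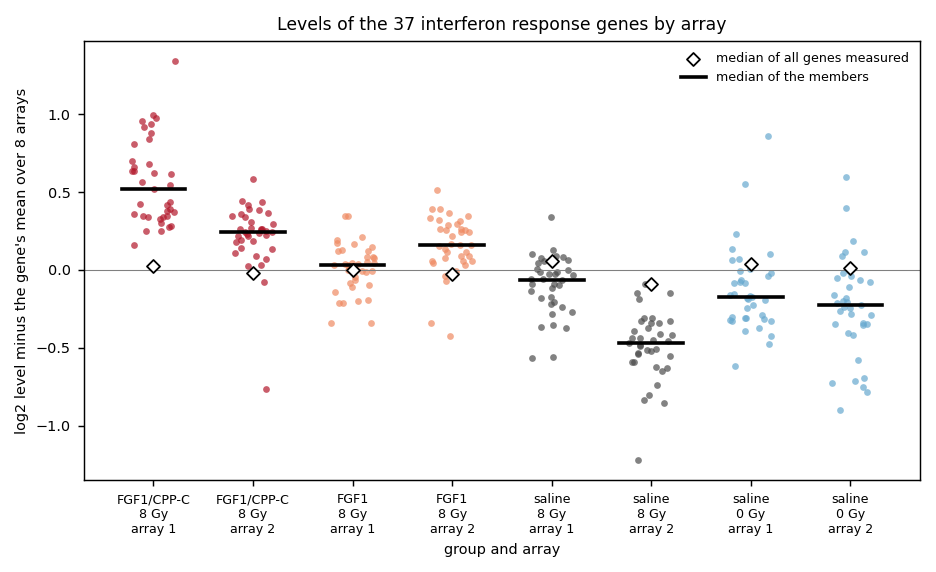
Centred log2 levels of the 37 members (points) on the 8 arrays, with their median (black bars) and the median of all genes measured (white diamonds). The members' median runs between 0.52 on array 1 of FGF1/CPP-C and -0.47 on array 2 of irradiated saline.

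The first question was how irradiated intestine given FGF1/CPP-C differed from irradiated saline. All 37 members had a positive fold change over irradiated saline, against 52.5% of all genes. The median was 0.65 on the log2 scale (range 0.03 to 1.50), beside 0.01 for all genes. For 34 of the 36 members with both values on each side, the 2 FGF1/CPP-C arrays were above both irradiated saline arrays, as they were for 20.1% of all genes, and for 0 members they were below (22.1% of all genes). No member passed an adjusted p of 0.05 in limma's moderated test, and 0.0092% of all genes did. At an unadjusted limma p under 0.05, 30 members were higher and 0 lower, beside 5.77% and 5.51% of all genes. The smallest adjusted p of a member was 0.2493, so the individual differences are given as values.

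The second question was the same for FGF1. Over irradiated saline 36 of 37 members had a positive fold change (46.9% of all genes), with a median of 0.38 (range -0.29 to 0.81). The median over all genes was -0.01. Non-overlapping and higher were 23 of 36 members (7.42% of all genes), and Trim25 was non-overlapping and lower (10.6%). No member and no gene at all passed (0% of genes), with an adjusted p of 1 for every member. At an unadjusted limma p under 0.05, 9 members were higher and 1 lower, beside 0.69% and 0.934% of all genes.

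Array 2 of irradiated saline weighed on both comparisons. On slide 1 alone the members' median was 0.66 for FGF1/CPP-C and 0.10 for FGF1 over irradiated saline, and on slide 2 alone it was 0.71 and 0.66. Without array 2 of irradiated saline the medians were 0.47 for FGF1/CPP-C and 0.18 for FGF1, and array 1 is then assumed to vary like the arrays of the other groups. In that fit 34 of 36 members were positive for FGF1/CPP-C (37.7% of all genes) and 30 of 36 for FGF1 (32.2%). At an unadjusted limma p under 0.05, 17 members were higher with FGF1/CPP-C and 0 lower, beside 2.33% and 4.69% of all genes, and 2 were higher and 1 lower with FGF1, beside 0.639% and 2.92%. Both FGF1/CPP-C arrays were above array 1 of irradiated saline for 34 of 36 members and below it for 1, beside 25.4% and 46% of all genes. Both FGF1 arrays were above it for 23 and below it for 3, beside 17.8% and 47.9%. Without array 1 of irradiated saline the FGF1 median was 0.59. On both slides 35 of 36 members were higher with FGF1/CPP-C (32.4% of all genes) and 23 of 36 with FGF1 (13.2%).

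The sensors of foreign nucleic acid all had positive fold changes for both proteins over irradiated saline. Dhx58, encoding LGP2, a partner of the RNA sensors RIG-I and MDA5, had levels of -0.75 and -1.01 with FGF1/CPP-C, -1.23 and -0.95 with FGF1, -1.56 and -1.71 in irradiated saline, and -1.47 and -1.50 in unirradiated saline. Every array of a protein-treated group lay above every saline array. The log2 fold change over irradiated saline was 0.75 ± 0.15 (SE, 2 arrays a group) for FGF1/CPP-C and 0.54 ± 0.15 for FGF1, with limma adjusted p of 0.2666 and 1. Ddx58 (RIG-I itself) and Ifih1 (MDA5) were 0.57 ± 0.16 and 0.56 ± 0.20 higher with FGF1/CPP-C. A second, dimmer probe gave 0.50 ± 0.15 for Ddx58 but 0.27 ± 0.24 for Ifih1. On that Ifih1 probe FGF1/CPP-C, at -3.58 and -3.68, overlapped irradiated saline, at -3.56 and -4.25, and was -0.08 ± 0.24 against FGF1. Zbp1, a sensor of Z-form nucleic acid that can trigger cell death, was 1.24 ± 0.39 higher with FGF1/CPP-C than in irradiated saline. Its irradiated saline values of 0.77 and -0.39 were the widest pair of that group among the sensors, and without array 2 its difference was 0.66.

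The transcription factors that carry the interferon signal also had positive fold changes. Stat2, the STAT specific to type I and III interferon signalling, had levels of 2.28 and 2.14 with FGF1/CPP-C, 1.91 and 2.08 with FGF1, 2.05 and 1.58 in irradiated saline, and 1.61 and 1.71 in unirradiated saline. Irf9, the DNA-binding partner of the STATs, had 2.53 and 2.38, 2.38 and 2.28, 2.25 and 1.85, and 1.86 and 1.99 in the same 4 groups. Irf7, which drives interferon genes and is itself interferon-induced, had 0.51 and 0.07, -0.18 and -0.01, -0.29 and -0.63, and -0.48 and -0.38. For all 3 genes both FGF1/CPP-C arrays were above both arrays of either saline group. The fold changes of FGF1/CPP-C over irradiated saline were 0.40 ± 0.17 for Stat2, 0.41 ± 0.16 for Irf9 and 0.75 ± 0.19 for Irf7, with limma adjusted p of 0.4527, 0.4257 and 0.3525.

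The OAS family, enzymes that make the 2-5A messenger which activates RNase L, held the member with the highest fold change. Oas3 had levels of -0.92 and -1.68 with FGF1/CPP-C, -2.31 and -1.92 with FGF1, -2.82 and -2.79 in irradiated saline, and -2.66 and -3.02 in unirradiated saline. The 3 ranges of FGF1/CPP-C, FGF1 and saline did not overlap, and radiation alone left no gap between the saline groups. The FGF1/CPP-C value was 2.835-fold that of irradiated saline (log2 1.50 ± 0.28, limma adjusted p = 0.2493), and the FGF1 value 1.613-fold (0.69 ± 0.28). Oasl2, an OAS-like protein, had 2.44 and 1.83 with FGF1/CPP-C, 1.57 and 1.74 with FGF1, 1.11 and 0.94 in irradiated saline, and 1.15 and 1.08 in unirradiated saline, again in 3 separate ranges. It was 1.11 ± 0.21 higher with FGF1/CPP-C (adjusted p = 0.2503 in limma) and 0.63 ± 0.21 with FGF1.

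Oas2 and Oas1a departed from this pattern in different ways. Oas2 had levels of 0.50 and -0.12 with FGF1/CPP-C, 0.04 and 0.01 with FGF1, -0.87 and -0.63 in irradiated saline, and -0.49 and -0.88 in unirradiated saline. The 2 protein-treated groups overlapped, and both lay above both saline groups, by 0.94 ± 0.24 and 0.78 ± 0.24 over irradiated saline. Oas1a, dim on these arrays, had -4.33 and -5.73 with FGF1/CPP-C, -5.16 and -5.39 with FGF1, -4.86 and -5.77 in irradiated saline, and -4.11 and -4.37 in unirradiated saline. The highest 3 arrays were both unirradiated ones and array 1 of FGF1/CPP-C, and the 2 FGF1/CPP-C arrays were far apart. Oasl1, which restrains translation of Irf7, was 0.39 ± 0.12 higher with FGF1/CPP-C than in irradiated saline.

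IFIT proteins bind foreign RNA ends and stop their translation. Ifit3 had levels of -0.34 and -0.59 with FGF1/CPP-C, -1.29 and -0.90 with FGF1, -1.17 and -1.49 in irradiated saline, and -0.82 and -1.03 in unirradiated saline. Both FGF1/CPP-C arrays were above the other 6, and FGF1 overlapped both saline groups. The difference from irradiated saline was 0.87 ± 0.19 for FGF1/CPP-C (limma adjusted p = 0.3064) and 0.23 ± 0.19 for FGF1. Ifit2 had -3.44 and -3.71 with FGF1/CPP-C, -3.78 and -3.82 with FGF1, -4.02 and -4.30 in irradiated saline, and -3.74 and -3.70 in unirradiated saline, with irradiated saline below the other 6 arrays. Ifit1 was 0.94 ± 0.34 higher with FGF1/CPP-C than in irradiated saline, and Eif2ak2, the RNA-activated kinase PKR that halts translation, 0.36 ± 0.16.

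The ISG15 system attaches the ubiquitin-like protein ISG15 to other proteins. Isg15 had levels of 4.79 and 4.25 with FGF1/CPP-C, 3.99 and 4.22 with FGF1, 3.72 and 3.36 in irradiated saline, and 3.77 and 3.54 in unirradiated saline. The protein-treated groups lay above both saline groups, which overlapped. The FGF1/CPP-C value was 1.973-fold that of irradiated saline (log2 0.98 ± 0.22, limma adjusted p = 0.3075), and a second probe gave 0.96. Usp18, the protease that removes ISG15 and damps the type I receptor, had 0.81 and 0.20 with FGF1/CPP-C, -0.04 and 0.05 with FGF1, -0.55 and -0.74 in irradiated saline, and -0.35 and -0.90 in unirradiated saline. It stood at 1.15 ± 0.26 over irradiated saline with FGF1/CPP-C and 0.65 ± 0.26 with FGF1, in separate ranges.

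Trim25, a ubiquitin ligase that activates RIG-I, was the one member with a negative fold change for FGF1 over irradiated saline. Its levels were 2.98 and 2.86 with FGF1/CPP-C, 2.38 and 2.38 with FGF1, 2.70 and 2.64 in irradiated saline, and 2.96 and 2.91 in unirradiated saline. The FGF1 arrays were below the other 6, and FGF1/CPP-C overlapped unirradiated saline. The difference was -0.29 ± 0.09 for FGF1 over irradiated saline and 0.54 ± 0.09 for FGF1/CPP-C over FGF1 (limma adjusted p = 0.2405), the smallest p of any member in that comparison. These values come from the probe with the T and G run printed above. The second Trim25 probe had a value on array 1 of FGF1 only, at 5.53, since its spot was marked as an outlier on the other arrays. It therefore gave no group difference to set beside these values. Whether the run has a part in them was not tested.

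Among the other antiviral effectors Ifitm3 was the only member that passed the test in any comparison. Ifitm3, a membrane protein that blocks virus entry at endosomes, had levels of 2.45 and 2.16 with FGF1/CPP-C, 1.99 and 2.06 with FGF1, 1.82 and 1.72 in irradiated saline, and 1.48 and 1.56 in unirradiated saline. The 4 groups did not overlap and stood in that order. It rose 1.727-fold with FGF1/CPP-C and 8 Gy over unirradiated saline (log2 0.79 ± 0.12, limma adjusted p = 0.04557, higher on both slides). With the slide as a block the adjusted p was 0.07332, and over the other settings tried it ran between 0.02366 and 0.2593. Bst2, which tethers budding virus, was 0.58 ± 0.22 higher with FGF1/CPP-C than in irradiated saline.

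For Mx1, Mx2 and Rsad2 the arrays of the saline groups did not overlap, though none of them passed the test between those groups. Mx1, a GTPase against influenza virus that is defective in most inbred mouse strains, had levels of -1.19 and -1.26 with FGF1/CPP-C, -1.01 and -0.96 with FGF1, -1.01 and -1.50 in irradiated saline, and -1.83 and -2.04 in unirradiated saline. All 6 irradiated arrays lay above both unirradiated ones, and FGF1 lay above FGF1/CPP-C. Rsad2, encoding viperin, had 0.82 and 0.40 with FGF1/CPP-C, 0.26 and 0.74 with FGF1, 0.11 and -0.11 in irradiated saline, and 1.03 and 0.57 in unirradiated saline. Here only irradiated saline stood apart, below the rest. Mx2 was 0.95 ± 0.26 higher with FGF1/CPP-C and 0.54 ± 0.26 higher with FGF1 than in irradiated saline.

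**Figure D4:**
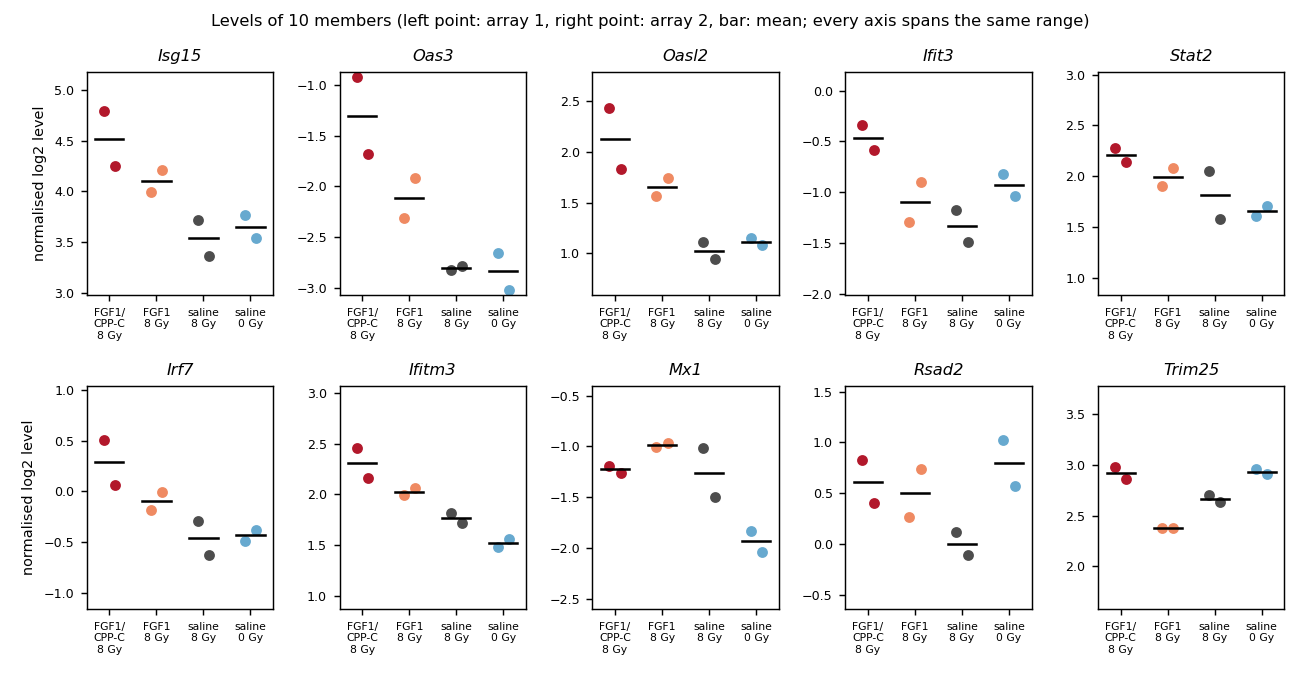
Normalised log2 levels of 10 members by group, with array 1 at left and array 2 at right of each pair and a bar at the group mean, and with y axes of equal span. Oas3 and Oasl2 step down over the 2 protein-treated groups to saline, Mx1 is lowest in unirradiated saline, and Rsad2 is lowest in irradiated saline.

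Of the remaining induced genes, Parp14 and Ifi44 had the smallest p for FGF1/CPP-C over irradiated saline. Parp14, an ADP-ribosyltransferase, had levels of 3.20 and 3.16 with FGF1/CPP-C, 2.84 and 3.10 with FGF1, 2.38 on the 1 measured array of irradiated saline, and 2.49 and 2.46 in unirradiated saline. The other irradiated saline spot, on array 1, carried an outlier mark and was dropped from the fit. Its unscaled signal was 17022.1, beside 17356.8 and 17652.6 with FGF1/CPP-C and 15105 and 17189.1 with FGF1. On array 2 of irradiated saline the signal was 11128.7. The 75th percentile was 1940.2 on array 1 of irradiated saline and 1894.4 to 2131.5 on these other arrays. For irradiated saline the differences that follow rest on array 2 alone. The difference from irradiated saline was 0.79 ± 0.15 for FGF1/CPP-C (limma adjusted p = 0.3002) and 0.59 ± 0.15 for FGF1. Ifi44, an interferon-induced cytoplasmic protein, had -1.85 and -2.03 with FGF1/CPP-C, -2.11 and -2.36 with FGF1, -2.55 and -2.91 in irradiated saline, and -2.18 and -2.29 in unirradiated saline. Irradiated saline was below the other groups and FGF1/CPP-C above them, at 0.79 ± 0.16 over irradiated saline. Parp9, Ifi35, Xaf1 and Rtp4 stood between 0.41 (Ifi35) and 0.70 (Rtp4) above irradiated saline with FGF1/CPP-C.

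The 2 probes of Xaf1, which promotes apoptosis by binding XIAP, gave differences of unequal size. The brighter one gave 0.93 and 0.60 with FGF1/CPP-C, 0.49 and 0.61 with FGF1, 0.33 and -0.09 in irradiated saline, and 0.04 and 0.01 in unirradiated saline. The dimmer one gave -4.27 and -4.37, -4.42 and -4.29, -5.36 and -5.39, and -5.89 and -5.93 in the same groups. On both probes the protein-treated arrays lay above all saline arrays. The dimmer probe was well above background on 7 of 8 arrays, array 2 of unirradiated saline being the exception, so its unirradiated level was measured on 1 array. Over unirradiated saline the dimmer probe was 1.59 higher with FGF1/CPP-C (limma adjusted p over all probes = 0.004421) and 1.56 ± 0.10 higher with FGF1 (0.007564), and over irradiated saline 1.05 (0.09366) and 1.02 (0.4682). The brighter probe passed in none of these, with 0.74, 0.52, 0.65 and 0.43.

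Interferon-inducible GTPases guard against intracellular parasites and bacteria, and the immunoproteasome with TAP1 supplies peptides to MHC class I. Igtp was 1.14 ± 0.27 higher with FGF1/CPP-C than in irradiated saline (limma adjusted p = 0.3342, and 0.78 higher without array 2 of irradiated saline), Gbp3 0.79 ± 0.24, Irgm1 0.74 ± 0.20 and Gbp2 0.40 ± 0.16. Both FGF1/CPP-C arrays were above both irradiated saline arrays for these 4 genes. Psmb9, an immunoproteasome subunit, had levels of 4.08 and 4.05 with FGF1/CPP-C, 3.62 and 3.79 with FGF1, 3.89 and 3.09 in irradiated saline, and 3.89 and 4.23 in unirradiated saline. Only array 2 of irradiated saline was far below the rest. Psmb8, its partner subunit, showed the same gap, with 3.98 and 3.06 in irradiated saline. Tap1 was 0.55 ± 0.15 higher with FGF1/CPP-C.

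**Figure D5:**
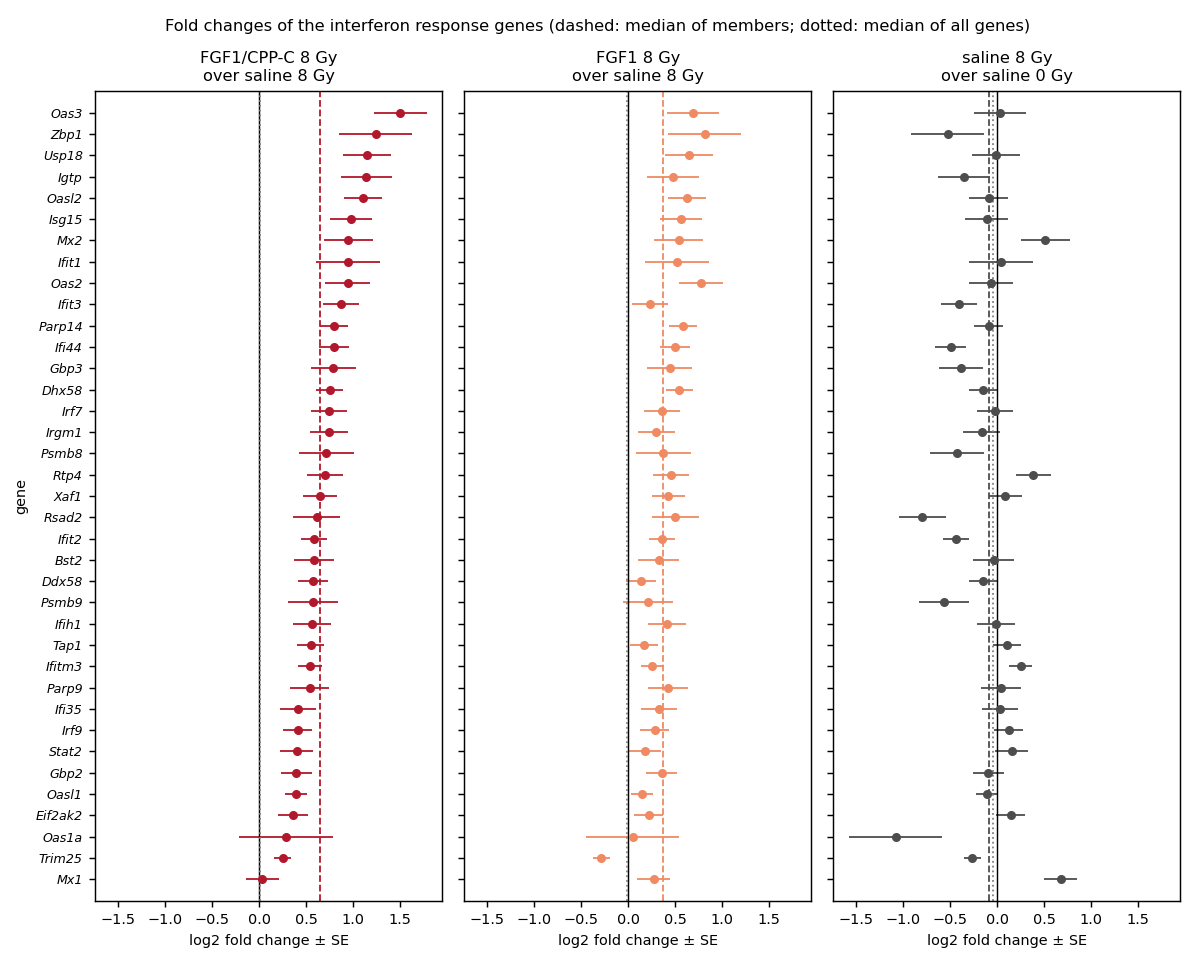
Log2 fold changes ± SE of the 37 members for FGF1/CPP-C over irradiated saline (left), FGF1 over irradiated saline (middle) and irradiated over unirradiated saline (right), in the order of the left panel. Dashed lines are the members' medians (0.65, 0.38 and -0.09) and dotted lines those of all genes. All 37 points lie right of 0 in the left panel.

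Whether the chimera and FGF1 differ was asked directly. The amount of protein injected is not in the labels, so whether the doses matched is not known here. Over FGF1, 36 of 37 members were positive (53.6% of all genes), with a median of 0.28 beside 0.02 over all genes. No member passed (0.00919% of all genes did), 5 were higher (5.11%) and 0 lower (3.57%) at an unadjusted limma p under 0.05, and 24 of 37 were non-overlapping and higher (24.5%), with Mx1 non-overlapping and lower (20.8%). The 95% interval of the difference was 0.13 to 1.50 for Oas3 (0.81, limma adjusted p = 0.5107), 0.16 to 1.10 for Ifit3, -0.13 to 0.97 for Isg15 and -0.67 to 0.19 for Mx1. These values are from the brightest probe of each gene, and second kept probes gave smaller differences. They were 0.06 for Zbp1 (0.42 on the brighter probe), 0.03 for Xaf1 (0.22), -0.08 for Ifih1 (0.15) and 0.18 for Irgm1 (0.45). For Ddx58 and Isg15 they were closer, at 0.32 (0.44) and 0.41 (0.42). The slides differed, with a median of 0.48 on slide 1 and 0.06 on slide 2. Without array 1 of FGF1/CPP-C the median was 0.14.

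Carbon ions without a protein left the set near its unirradiated level at 4 h. For irradiated over unirradiated saline 13 of 37 members were positive (42.8% of all genes), with a median of -0.09 beside -0.04 over all genes. No member passed, while 0.446% of all genes did. At an unadjusted limma p under 0.05, 1 was higher (5.03%) and 4 lower (6.57%), and of 36 members 4 were non-overlapping and higher (16.1%) and 9 lower (20.6%). These counts were near the shares of all genes and set no direction for the members, so single members are given only as values. Mx1 was 0.68 ± 0.18 higher (limma adjusted p = 0.2386), Mx2 0.51 ± 0.26, Rtp4 0.38 ± 0.19 and Ifitm3 0.25 ± 0.12. Rsad2 was at -0.80 ± 0.25, Ifi44 at -0.50 ± 0.16, Ifit2 at -0.44 ± 0.14 and Ifit3 at -0.40 ± 0.19. The slides disagreed in sign, at 0.03 on slide 1 and -0.21 on slide 2. Without array 2 of irradiated saline the median was 0.06, and without the 3 arrays with the highest antrum sums (array 1 of FGF1, array 2 of irradiated saline and array 1 of unirradiated saline) 0.14.

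Against unirradiated saline, the treated and irradiated groups combine both differences and share its arrays. With FGF1/CPP-C 34 of 37 members were positive (45.7% of all genes), with a median of 0.57 beside -0.03 over all genes. Ifitm3 passed, beside 1.03% of all genes that rose, beside 1.72% that passed in either direction. At an unadjusted limma p under 0.05, 25 members were higher (9.9%) and 0 lower (11.6%), and 32 were non-overlapping and higher (28.4%) and 0 lower (31.7%). Rtp4, a receptor-transporting protein that restricts parasites and viruses, was 1.09 ± 0.19 higher (limma adjusted p = 0.05608), Mx2 1.46 ± 0.26 (0.05914) and Oas3 1.54 ± 0.28 (0.06114). With FGF1 29 of 37 were positive (41.2%), with a median of 0.34 beside -0.06, and none passed (0.819% of all genes did). At an unadjusted limma p under 0.05, 12 were higher (6.94%) and 1 lower (9%), and 25 were non-overlapping and higher (22.1%) and 4 lower (29.4%). Mx1 was 0.95 ± 0.18 higher with FGF1 (limma adjusted p = 0.08374) and Trim25 at -0.55 ± 0.09 (0.07472).

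The members varied together over the 8 arrays to different degrees. The Pearson correlation of a member with the median of the others over the 8 arrays was 0.9776 for Isg15, 0.9729 for Xaf1 and 0.9716 for Irf7, and lowest for Psmb9 (0.5324), Mx1 (0.5249), Rsad2 (0.4526), Trim25 (0.1096) and Oas1a (0.0846). These are descriptions over arrays that share groups and slides. Of all other genes, those most like the members' median were Il18bp (0.992), Tac2 (0.9875), Gm12250 (0.9872), Gm9706 (0.9822), Trafd1 (0.9744), Supt5 (0.9728), Herc6 (0.9707), Klra2 (0.9701), Iba57 (0.9692), Atp13a1 (0.9683), Il22ra1 (0.9679), Dip2a (0.9678) and Fpr1 (0.9671). A further 2 of the 15 closest probes, at 0.9958 and 0.976, carry only a transcript identifier in the files.

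The rest of the pathway was read from lists drawn up by role. The 11 of 19 interferon ligands measured had medians between -0.21 and 0.09 over the 6 comparisons, and the smallest p was that of Ifna11 (-0.67 ± 0.17 for FGF1 over unirradiated saline, limma adjusted p = 0.1492). Ifnb1, Ifng, Ifne and Ifna4 had a probe that was not well above background in any group. None of 5 tested receptors passed, although Ifnar2, a chain of the type I receptor, had 1.37 and 1.41 with FGF1/CPP-C, 0.93 and 0.96 with FGF1, 0.99 and 0.72 in irradiated saline, and 0.71 and 0.68 in unirradiated saline (0.69 ± 0.11 for FGF1/CPP-C over unirradiated saline, limma adjusted p = 0.05173). None of 9 JAK-STAT and IRF factors, 12 MHC class I, 15 sensing adaptor, 9 negative regulator or 6 chemokine genes passed in any comparison. The smallest p in those lists were those of Irf8 (0.71 ± 0.16, limma adjusted p = 0.09118) and Ccl2 (0.66 ± 0.13, 0.07143) for FGF1/CPP-C over unirradiated saline, Nlrc5 (0.95 ± 0.21, 0.3052) for FGF1/CPP-C over irradiated saline, Cgas (0.54 ± 0.12, 0.3016) for FGF1/CPP-C over FGF1, and Myd88 (0.57 ± 0.12, 0.1067) and Socs3 (1.65 ± 0.36, 0.1121) for FGF1 over unirradiated saline. The chemokines did not all share the direction of Ccl2. Cxcl11 was lower with FGF1/CPP-C, at 7.72 and 7.56, than in unirradiated saline, at 8.12 and 8.21. Between these groups the mean of Cxcl10 was also lower, and those of Cxcl9 and Ccl7 were higher. That of Ccl5 was nearly equal, at 4.05 with FGF1/CPP-C against 4.03.

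Of 45 further interferon-stimulated genes measured, 3 rose with FGF1/CPP-C over unirradiated saline and 0 fell, beside 1.03% of all genes that rose and 1.72% that passed in either direction. Ly6e, a membrane protein that blocks coronavirus fusion, had levels of 2.85 and 2.87 with FGF1/CPP-C, 2.54 and 2.77 with FGF1, 2.44 and 2.28 in irradiated saline, and 1.76 and 1.84 in unirradiated saline, in separate ranges (1.06 ± 0.12, limma adjusted p = 0.02395, and 0.04572 with the slide as a block). Ifitm1, a relative of Ifitm3, was 1.03 ± 0.15 higher (0.03803), and Slfn2, a regulator of T cell quiescence, 1.40 ± 0.22 (0.04443), neither of which passed with the block (0.06522 and 0.05133). With FGF1 over unirradiated saline, where 0.819% of all genes passed, Ifitm1 rose by 1.09 ± 0.15 (limma adjusted p = 0.04639) and Ly6e by 0.85 ± 0.12 (0.04671), and with the block they were at 0.08441 and 0.08886. For FGF1/CPP-C over irradiated saline 39 of the 45 were positive (52.5% of all genes), with a median of 0.42, and none passed.

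Markers of other cell types moved with the arrays. The summed signal of 13 T cell markers relative to the 75th percentile was 27.43 and 26.45 with FGF1/CPP-C, 17.22 and 21.9 with FGF1, 20.46 and 15.59 in irradiated saline, and 18.84 and 22.23 in unirradiated saline. Most of this sum was from 1 marker, Cd4, at 3.26 to 4.09. The centred median of the 13 markers was 0.22 and 0.30 with FGF1/CPP-C and -0.23 and -0.30 with FGF1. It was -0.03 and -0.66 in irradiated saline and 0.08 and 0.31 in unirradiated saline. Of these markers 12 of 13 were positive for FGF1/CPP-C over irradiated saline, beside 52.5% of all genes. The summed signal of 4 neutrophil markers was 0.6396 and 0.5102 with FGF1/CPP-C and 0.5166 and 0.5609 with FGF1. It was 0.2665 and 0.1551 in irradiated saline and 0.2499 and 0.202 in unirradiated saline. Of these 4 markers 2, S100a8 and S100a9, passed over unirradiated saline with either protein. The other 2, Mpo and Retnlg, overlapped between FGF1/CPP-C and unirradiated saline, with Mpo at -4.46 and -4.69 against -4.51 and -4.64, and Retnlg at -3.15 and -2.99 against -2.91 and -3.27. For the 9 enterocyte markers with a value on all arrays the sum was 1368 and 1283 with FGF1/CPP-C, 1052 and 1183 with FGF1, 1246 and 948.2 in irradiated saline, and 1094 and 1235 in unirradiated saline. The sum of 5 smooth muscle markers was lowest on the FGF1/CPP-C arrays, at 65.91 and 62.12, with 80.82 and 84.56 with FGF1, 80.9 and 124.3 in irradiated saline, and 97.97 and 89.46 in unirradiated saline. For 12 macrophage and dendritic cell markers the centred median was 0.17 and 0.17 with FGF1/CPP-C and 0.10 and 0.03 with FGF1. It was -0.03 and -0.36 in irradiated saline and -0.02 and -0.03 in unirradiated saline. Like the members' median, it was highest with FGF1/CPP-C, then FGF1, then saline. Their sum had another order, at 30.5 and 30.51, 35.39 and 34.69, 34.87 and 24.64, and 28.36 and 31.18. Array 2 of FGF1/CPP-C stood apart in B cell markers, with Ms4a1 at -0.63, against -7.68 to -4.09 on the other 7 arrays. The centred median of 8 B and plasma cell markers was 1.22 on it, against -0.48 to 0.27 on the others. Array 2 of irradiated saline, lowest for most members, was also lowest in the T cell, neutrophil, enterocyte, macrophage, B cell, NK cell and plasmacytoid dendritic cell sums and highest in the smooth muscle and antrum sums. Most of the plasmacytoid dendritic cell sum, 82.99 on that array and up to 103 elsewhere, was from 1 marker, Siglech, at 6.20 to 6.53. The part of these differences in the levels of the interferon response genes was not tested.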

How the data were processed

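Gene expression was measured on 8 arrays. Per the labels, RNA was extracted with Trizol and RNeasy and labelled with Cy3. Per the file headers, the scanner software was Agilent Feature Extraction 9.5.3.1, and the deposited processed signal is an intensity on a linear scale, background-subtracted and not scaled between arrays. The deposited series matrix holds the same intensity for spots well above background.

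The log2 signal minus each array's 75th percentile was used, with a floor of -7.68. Control and outlier spots were left out, and a gene was read by its brightest kept probe. The group test was limma's (limma 3.58.1, R 4.3.3, 4 group means, 8 arrays, 4 residual degrees of freedom), adjusting by Benjamini-Hochberg over all genes at a threshold of 0.05. An exact permutation test of 2 against 2 arrays cannot go below p = 0.333. The script was tested on simulated data. Python 3.11.15 with matplotlib 3.10.9 drew the figures.

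The members and lists were chosen with earlier results of these data known. Values on every array are given for members that passed, for the 8 of smallest p in each of FGF1/CPP-C and FGF1 over irradiated saline and irradiated over unirradiated saline, and for Stat2, Irf9 and Irf7. In each other list the passing genes, or otherwise those of smallest p, were named, and so were the 15 genes most like the members. The replicate number is the slide. Same-numbered arrays deviated from their group means with r from -0.5175 to 0.5337 between groups. Alternatives were quantile normalization, normexp with an offset of 50, the series matrix, other probe filters, the mean of probes, the 2 groups alone, the slide as a block, trend and robust moderation, and leaving out arrays. Ifngr1, marked as an outlier on 6 of 8 arrays, was not tested.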

Additional observations from a re-analysis of the deposited data

How the results depend on the processing

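The direction of the members' median held in every alternative run for both proteins over irradiated saline, for FGF1/CPP-C over FGF1 and for both proteins over unirradiated saline. Leaving out each array in turn gave medians of 0.4684 to 0.8226 for FGF1/CPP-C over irradiated saline, 0.1807 to 0.5918 for FGF1 over irradiated saline, 0.1393 to 0.4273 for FGF1/CPP-C over FGF1, 0.4716 to 0.7209 for FGF1/CPP-C over unirradiated saline and 0.253 to 0.423 for FGF1 over unirradiated saline. For irradiated over unirradiated saline it was -0.2271 to 0.059, and 0.1377 without the 3 arrays with the highest antrum sums. The sign of that median is thus not settled. Those 3 are called the antrum arrays below, but leaving them out did not remove antrum signal from their groups. The partner arrays left in had antrum sums of 292.7 (FGF1), 300.6 (irradiated saline) and 518.8 (unirradiated saline). The FGF1/CPP-C arrays had 0.6005 and 0.3828. No member passed under any setting run in irradiated over unirradiated saline, in either protein over irradiated saline or in FGF1/CPP-C over FGF1.

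Members that passed for FGF1/CPP-C over unirradiated saline numbered 2 with quantile normalization, 5 with normexp, 2 with probes above background on all 8 arrays, 2 with the mean of probes and 6 with trend and robust moderation, and 0 with the series matrix, with no filter, with the 2 groups alone, with the replicate block and without the 3 antrum arrays, and 0 to 3 leaving out an array. For FGF1 over unirradiated saline they numbered 2 with normexp, 1 with the mean of probes, 1 with trend and robust moderation, and 0 to 1 leaving out an array.

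Genes passing over the whole array moved too, and the causes were not tested. For irradiated over unirradiated saline they were 34 with the series matrix, 0 with the 2 groups alone, 64 with the replicate block, 152 with trend and robust moderation, 0 without the 3 antrum arrays, and 0 to 42 leaving out an array. For FGF1 over irradiated saline they were 2 with the mean of probes, and 0 leaving out an array. For FGF1/CPP-C over irradiated saline they were 6 with quantile normalization, 5 with normexp, 0 with the series matrix, 0 with no filter, 1 with all 8 arrays above background, 8 with the mean of probes, 0 with the 2 groups alone, 0 without the 3 antrum arrays, and 2 to 4 leaving out an array. For FGF1/CPP-C over FGF1 they were 10, 10, 0, 0, 1, 11 and 0 in the same first 7 settings, 7 with trend and robust moderation, 0 without the antrum arrays, and 2 to 5 leaving out an array. For FGF1 over unirradiated saline they were 289 with normexp, 60 with the series matrix, 3 with the 2 groups alone, 71 with the replicate block, 352 with trend and robust moderation, 0 without the antrum arrays, and 0 to 169 leaving out an array. For FGF1/CPP-C over unirradiated saline they were 105 with the series matrix, 227 with no filter, 8 with the 2 groups alone, 174 with the replicate block, 648 with trend and robust moderation, 0 without the antrum arrays, and 8 to 838 leaving out an array. The number of arrays limits the precision, and the replicate block changed no other call on a member.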
